A study of Homo sapiens with 12 samples.

Results

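KRT7, KRT8, KRT18, KRT19, KRT80 and KRT81, all keratin genes, and the vimentin gene VIM were followed through 12 libraries of polyadenylated RNA from human kidney cells. They were given as a list of symbols, and 7 of 7 matched a single Ensembl identifier among the 40649 genes of the count tables. All 7 passed the filter on low counts, which kept 19268 genes.

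Keratins and vimentin build intermediate filaments, the rope-like part of the cytoskeleton that spans the cytoplasm and is anchored at cell junctions. A keratin filament needs a type I keratin, here KRT18 or KRT19, paired with a type II keratin, here KRT7, KRT8, KRT80 or KRT81, whereas vimentin is a type III protein that assembles with itself. KRT8 and KRT18 are the main pair of simple epithelia such as the kidney tubule, KRT7 and KRT19 are known from ducts and from tubules after injury, and vimentin is typical of mesenchymal cells and of tubule cells that are injured, regenerating or in culture.

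The cells were HK-2, an immortalised line of human proximal tubule epithelium. The 4 ShNC libraries came from cells with the genotype ShNC, the one without the YAP1 knockdown, and the treatment Control. The 4 H2O2 libraries had the same ShNC genotype and received hydrogen peroxide, an oxidant, at 150 µM for 48 h, and the 4 YH libraries had the genotype Yap1 knockdown and the same peroxide treatment. The target of the knockdown, YAP1, is a co-activator of transcription that the Hippo pathway holds in check. Knockdown cells without peroxide were not analysed here, so the action of the knockdown alone and its interaction with peroxide were not tested. Nothing in the labels says that replicates were separate cultures, so the p-values measure the spread between these libraries, which may be technical.

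Total counts ran from 30789997 to 46582873 per library, at which 3 counts amount to 0.0644 to 0.0974 CPM, counts scaled to library size; the CPM of genes below are scaled with TMM factors as well. YAP1 stood at 151 to 164 CPM in the H2O2 libraries and at 111 to 136 CPM in the YH libraries, a difference in log2 of -0.29 ± 0.07 (SE; adjusted p = 0.00346), while the ShNC libraries held 124 to 140 CPM. Of the 13 proximal tubule markers found, 7 stayed under 1 CPM in every library, LRP2, CUBN and AQP1 among them, with SLC22A8 at 0, whereas PAX8 and CDH6 were high. The 8 markers of other nephron segments, 4 of endothelium and 8 of urothelium or squamous epithelium were all under 1 CPM. Of 4 leukocyte markers 3 were under 1 CPM, and CD14 averaged 1.27, 1.22 and 1.16 CPM in ShNC, H2O2 and YH. Fibroblast markers summed to 111 to 113 CPM in ShNC, 236 to 255 CPM in H2O2 and 144 to 172 CPM in YH, mostly LUM. Of the 5 tested, LUM, COL1A1 and DCN were higher in H2O2 than in ShNC, and PDGFRB (-0.72 ± 0.18) and THY1 (-1.05 ± 0.36) were lower. Their part in the differences described here was not tested.

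A pair of libraries stood apart. Mitochondrially encoded genes took 13.9% of counts in ShNC replicate 4 and 11.3% in YH replicate 3, against 4.54% to 5.64% in the other 10 libraries. The pair was taken by a limit of 10% on this share. Each of these libraries also had the lowest KRT8, the lowest KRT19 and the highest VIM of its group. Leaving them out thus also removes extreme values of these genes, and their calls without the pair need caution. The log2 differences of the 7 genes and the counts made from them are given with all libraries and without this pair.

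The 7 genes belong to related families. The coding sequences of the principal GENCODE 29 transcripts were aligned pairwise, and identity was counted over aligned bases, with gaps left out. KRT7 and KRT8 were 76.1% identical, the type I genes KRT18 and KRT19 66.6%, the filament partners KRT8 and KRT18 64.6%, and KRT8 and VIM 64.1%.

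Long stretches that are exactly shared can draw reads to the wrong gene, so these were counted. Shorter or inexact resemblance was not examined. No 100-base window of the principal transcripts of KRT7, KRT18, KRT19, KRT80 or VIM was found in another keratin or vimentin gene or pseudogene of the annotation. For KRT8 6.73% of windows were, led by the pseudogene KRT8P3, and for KRT81 30.3% were, nearly all of them in KRT86. The coding sequence of KRT86, a hair keratin, is 94.2% identical to that of KRT81 over the aligned bases. Values of KRT81 are therefore uncertain as to how reads were divided between KRT81 and KRT86. The 32 listed KRT8 pseudogenes carried 1.92% to 2.89% of the KRT8 level in CPM, and the 43 of KRT18 carried 0.394% to 1.43% of the KRT18 level.

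Of the 6 keratin genes 5 lie in the keratin cluster of GRCh38 chromosome 12, including the type I gene KRT18. KRT80 (ENSG00000167767) spans 52168996 to 52192000 on the minus strand, KRT7 (ENSG00000135480) 52232520 to 52252186 on the plus strand, KRT81 (ENSG00000205426) 52285913 to 52291534 on the minus strand, KRT8 (ENSG00000170421) 52897187 to 52949954 on the minus strand and KRT18 (ENSG00000111057) 52948871 to 52952901 on the plus strand. KRT19 (ENSG00000171345) lies with other type I keratins on chromosome 17, 41523617 to 41528308, minus strand, and VIM (ENSG00000026025) on chromosome 10, 17228259 to 17237593, plus strand. Strand use in counting is not given in the sources used here. KRT8 and KRT18 point away from each other and overlap at their starts by 525 exon bases, which is 16.3% of the exon bases of KRT18 and 7.63% of those of KRT8. In KRT7 7.67% of exon bases overlap KRT7-AS or KRT87P, and in VIM 24.4% overlap VIM-AS1 or AL133415.1, so the VIM values are uncertain in this respect.

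The first comparison asks how the cells responded to peroxide. In H2O2 libraries 5 of the 7 genes were higher than in ShNC libraries (edgeR, adjusted p under 0.05) and none was lower. KRT7 was 12.1-fold and KRT81 4.16-fold higher, KRT18, KRT80 and VIM were 49.2%, 34.9% and 27.5% higher, and KRT8 and KRT19 did not pass. Of all genes tested 46.6% were called, 23.9% as higher and 22.6% as lower. For 5 of the 7, KRT8 in place of VIM, every H2O2 library lay above every ShNC library, against 25.2% of all genes, and for none did every one lie below, against 22.9%. The median log2 difference was 0.43 over the 7 genes and 0.00 over all tested genes. Without the pair of high mitochondrial share 5 of the 7 genes were called higher and KRT19 was called lower, in a fit that called 59.4% of all genes, 29.8% as higher and 29.6% as lower. Groups then did not overlap for any of the 7, with KRT19 below and the other 6 above ShNC, against 30.4% of all genes above and 29.3% below.

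The second comparison sets the genotype Yap1 knockdown against the genotype ShNC, both under peroxide. It uses the same H2O2 libraries as the first. In YH libraries 3 of the 7 genes were lower than in H2O2 libraries: KRT7 fell by 89.3%, KRT81 fell by 45.2% and KRT8 fell by 15.9%. None was higher, against 22% of all genes tested called higher, 21% called lower and 43% in either direction. KRT18, KRT80, KRT19 and VIM did not pass. For 4 of the 7, KRT7, KRT8, KRT19 and KRT81, every YH library lay below every H2O2 library, against 22.7% of all genes, and for none above, against 22.5%. The median log2 difference was -0.25 over the 7 genes and 0.00 over all tested genes. Without the pair of high mitochondrial share 6 of the 7 genes, all except KRT80, were called lower, in a fit that called 57.3% of all genes and 28.5% as lower. Groups then did not overlap for 5 of the 7, each lower in YH, against 28.3% of all genes.

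The third sets YH against ShNC, which differ in both genotype and peroxide and share their libraries with the comparisons above. KRT81, KRT18 and KRT80 were higher in YH by 128%, 43.5% and 30.4%, none of the 7 was lower, and KRT7, KRT8, KRT19 and VIM did not pass. Of all genes 32.5% were called, 17.4% as higher and 15.1% as lower. The same 3 genes had every YH library above every ShNC library, against 15.8% of all genes; in either direction groups did not overlap for 29.7% of all genes. Without the pair of high mitochondrial share 6 of the 7 genes were called, KRT7, KRT18, KRT80 and KRT81 as higher and KRT8 and KRT19 as lower, in a fit that called 46.8% of all genes, 24% as higher and 22.8% as lower. The same 6 then had groups that did not overlap, 4 higher and 2 lower, against 28.7% and 26.5% of all genes.

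**Figure D1:**
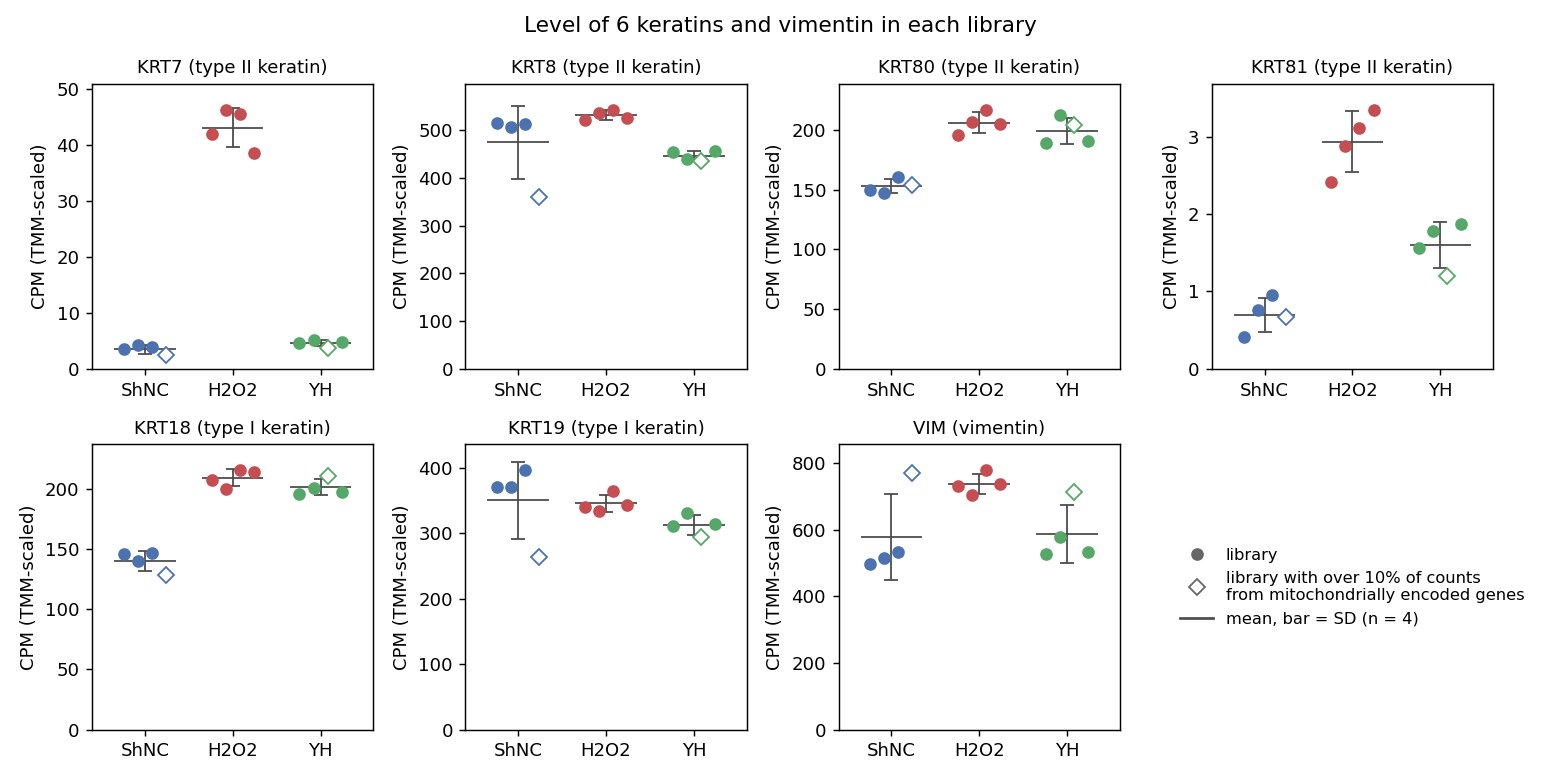
Level of each of the 7 genes in TMM-scaled CPM (y axis, from 0) in the 4 ShNC, 4 H2O2 and 4 YH libraries (x axis). Points are libraries, diamonds those of high mitochondrial share, and lines and bars the mean and SD. KRT7 is near 43.1 CPM in H2O2 and under 6 CPM elsewhere, whereas KRT18 and KRT80 are high in both groups given peroxide.

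**Figure D2:**
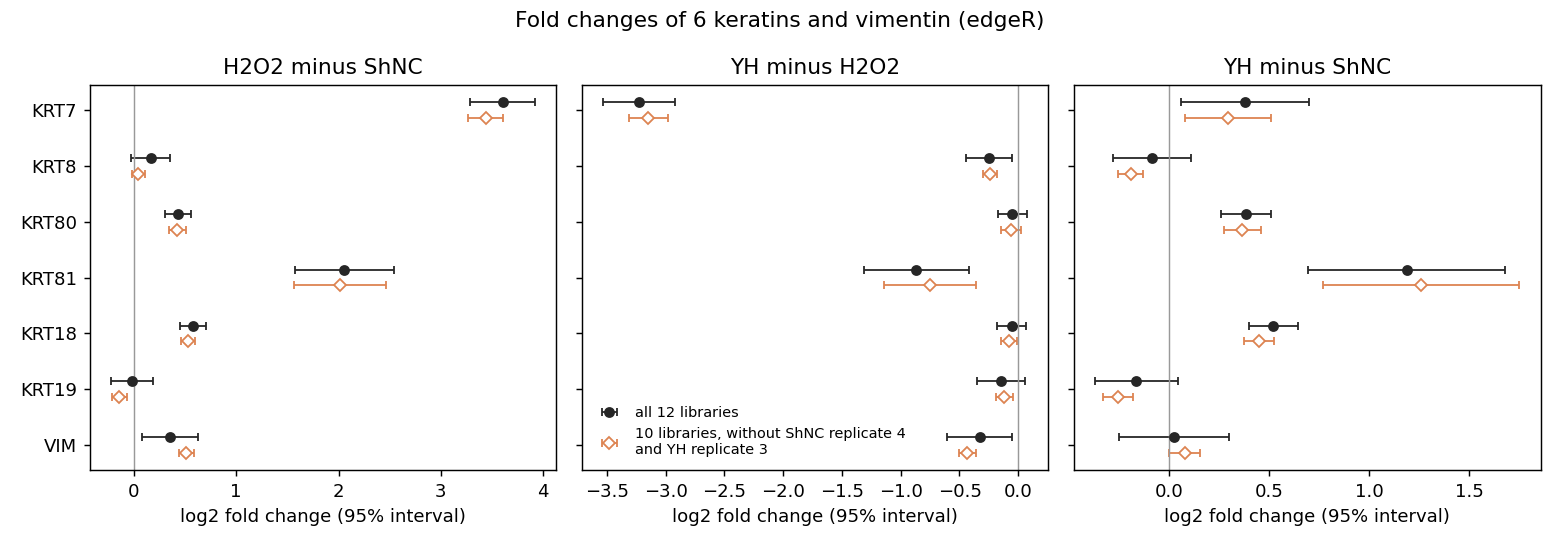
Log2 fold change of each gene with its 95% interval (x axis) in the 3 comparisons, from edgeR with all 12 libraries (filled) and with the 10 that remain without ShNC replicate 4 and YH replicate 3 (open). Intervals of KRT8, KRT19 and VIM are narrower in the 10 libraries, and those of KRT7, KRT18, KRT80 and KRT81 keep to the same side of 0 in H2O2 minus ShNC.

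KRT7, a type II keratin of ducts and glands, had the largest difference of the 7 in H2O2 minus ShNC and in YH minus H2O2. In ShNC it stood at 3.60, 4.28, 3.90 and 2.40 CPM for replicates 1 to 4, at 42.0, 46.3, 45.5 and 38.6 CPM in H2O2, and at 4.71, 5.10, 3.80 and 4.80 CPM in YH. Every H2O2 library was far above every other library, while the YH and ShNC ranges overlapped. The raw counts behind these levels were 101 to 187 per library in ShNC, 1434 to 1882 in H2O2 and 133 to 226 in YH.

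In log2, KRT7 was higher in H2O2 than in ShNC by 3.60 ± 0.15 (SE; 95% interval 3.29 to 3.92; edgeR adjusted p = 2.66e-11). From H2O2 to YH it differed by -3.22 ± 0.14 (-3.53 to -2.92; edgeR adjusted p = 1.44e-10). The difference that remained between YH and ShNC, 0.38 ± 0.15 (0.06 to 0.70), did not pass after adjustment (edgeR adjusted p = 0.0655). Without the pair of high mitochondrial share these differences were 3.44 ± 0.08, -3.15 ± 0.08 and 0.29 ± 0.11, and the last then passed. The antisense gene KRT7-AS was measured at 0.0997 ± 0.0547 CPM in ShNC, 0.900 ± 0.393 CPM in H2O2 and 0.159 ± 0.0705 CPM in YH (SD, n = 4), a small fraction of KRT7 in each group; whether counting kept the reads of the overlap apart by strand is not known.

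KRT81, a type II keratin known from hair, was the least abundant of the 7. ShNC replicates 1 to 4 had 0.416, 0.756, 0.956 and 0.666 CPM, against 2.41, 2.88, 3.11 and 3.35 CPM in H2O2 and 1.56, 1.78, 1.20 and 1.87 CPM in YH. The 3 groups did not overlap, with YH between ShNC and H2O2. These levels rest on 14 to 144 counts per library.

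The rise of KRT81 from ShNC to H2O2 was 2.06 ± 0.23 in log2 (1.57 to 2.54; edgeR adjusted p = 2.03e-06). YH lay below H2O2, with a difference of -0.87 ± 0.21 (-1.31 to -0.42; edgeR adjusted p = 0.00341), and above ShNC by 1.19 ± 0.23 (0.69 to 1.68; edgeR adjusted p = 0.00102). Without the pair of high mitochondrial share the values were 2.01 ± 0.22, -0.75 ± 0.19 and 1.26 ± 0.24. Because reads could be divided between KRT81 and KRT86, their levels were also summed: 0.856 to 1.28 CPM in ShNC, 3.33 to 4.63 CPM in H2O2 and 2.46 to 3.23 CPM in YH, again without overlap between groups.

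KRT80, a type II keratin widespread at low level in epithelia, was higher in both groups given peroxide. ShNC replicates 1 to 4 were at 150, 147, 160 and 154 CPM, the H2O2 libraries at 195, 207, 217 and 205 CPM and the YH libraries at 189, 212, 204 and 191 CPM. All ShNC libraries were below all others, and the H2O2 and YH ranges overlapped. KRT80 was higher by 0.43 ± 0.06 in log2 in H2O2 (0.31 to 0.56; edgeR adjusted p = 1.78e-05) and by 0.38 ± 0.06 in YH (0.26 to 0.51; edgeR adjusted p = 0.000129) than in ShNC. Between YH and H2O2 the interval of the difference, -0.17 to 0.07 around -0.05, included 0 (edgeR adjusted p = 0.529). Without the pair the 3 differences were 0.43 ± 0.04, 0.36 ± 0.04 and -0.06 ± 0.04.

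KRT8, the type II partner of KRT18, had the highest level of the 4 type II keratins. ShNC replicates 1 to 3 held 516, 507 and 514 CPM and replicate 4 held 361 CPM. The H2O2 libraries held 521, 537, 543 and 525 CPM and the YH libraries 454, 441, 436 and 457 CPM. Every H2O2 library was above every ShNC and every YH library, and ShNC replicate 4 was the lowest of all 12.

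From ShNC to H2O2 the difference in KRT8 was 0.16 ± 0.09 in log2 (-0.03 to 0.36; edgeR adjusted p = 0.154), and without the pair of high mitochondrial share it was 0.05 ± 0.03, so the call did not change. In YH it was lower than in H2O2, with a difference of -0.25 ± 0.09 (-0.44 to -0.06; edgeR adjusted p = 0.0365). That difference was -0.24 ± 0.03 without the pair, but it no longer passed when any single H2O2 or YH library was left out, with differences of -0.26 to -0.24 and edgeR adjusted p between 0.0586 and 0.0786. Against ShNC, YH differed by -0.09 ± 0.09 with all libraries (-0.28 to 0.11; edgeR adjusted p = 0.508) and by -0.19 ± 0.03 without the pair, which then passed. The group means were 474 ± 75.9, 532 ± 10.2 and 447 ± 10.1 CPM in ShNC, H2O2 and YH (SD, n = 4), and 512 ± 4.40 and 451 ± 8.67 CPM in ShNC and YH without the pair (n = 3).

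KRT18, the type I partner of KRT8, did not follow it. The ShNC libraries had 146, 140, 147 and 129 CPM in order of replicate number, the H2O2 libraries 207, 200, 215 and 214 CPM, and the YH libraries 196, 201, 210 and 197 CPM. The ShNC libraries were below all others, and the H2O2 and YH ranges overlapped. Relative to ShNC, KRT18 was higher by 0.58 ± 0.06 in log2 in H2O2 (0.45 to 0.70; edgeR adjusted p = 6.91e-07) and by 0.52 ± 0.06 in YH (0.40 to 0.64; edgeR adjusted p = 5.69e-06). YH and H2O2 differed by -0.06 ± 0.06 (-0.18 to 0.07; edgeR adjusted p = 0.461). Without the pair the differences were 0.53 ± 0.03, 0.45 ± 0.04 and -0.08 ± 0.03, the last of which then passed.

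KRT19, the other type I keratin and the smallest of the keratins, which lacks most of the tail domain, was at 370, 370, 396 and 264 CPM in the ShNC libraries, replicate 4 last. It gave 340, 334, 365 and 342 CPM in H2O2 and 311, 331, 293 and 313 CPM in YH. ShNC replicate 4 was again the lowest of the 12 libraries, and the other 3 ShNC libraries were the highest. YH libraries were all below H2O2 libraries.

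With all libraries KRT19 passed in none of the comparisons: the differences were -0.02 ± 0.10 for H2O2 minus ShNC (-0.22 to 0.19; edgeR adjusted p = 0.894), -0.15 ± 0.10 for YH minus H2O2 (-0.35 to 0.06; edgeR adjusted p = 0.244) and -0.16 ± 0.10 for YH minus ShNC (-0.37 to 0.04; edgeR adjusted p = 0.215). Without the pair of high mitochondrial share it was called lower in all 3, at -0.14 ± 0.03, -0.12 ± 0.03 and -0.26 ± 0.04. The mean in ShNC was 350 ± 58.4 CPM with replicate 4 (SD, n = 4) and 378 ± 15.0 CPM without it (n = 3).

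VIM, the type III filament protein, was the gene of the 7 whose call in the peroxide comparison depended most on single libraries. ShNC replicates 1 to 3 held 496, 514 and 532 CPM and replicate 4 held 770 CPM. The H2O2 libraries held 730, 705, 778 and 736 CPM. YH replicates 1, 2 and 4 held 527, 578 and 532 CPM and replicate 3 held 712 CPM. Both libraries of high mitochondrial share thus reached the H2O2 range, and the rest of ShNC and YH lay below it.

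With all libraries VIM was higher in H2O2 than in ShNC by 0.35 ± 0.13 in log2 (0.08 to 0.63; edgeR adjusted p = 0.0360). This call was lost when any of ShNC replicates 1 to 3 or any single H2O2 library was left out, and without the pair of high mitochondrial share the difference was 0.51 ± 0.04, which passed. For YH minus H2O2 the difference was -0.33 ± 0.13 (-0.60 to -0.05) and did not pass (edgeR adjusted p = 0.0515), and without the pair it was -0.43 ± 0.04, which passed. YH and ShNC differed by 0.02 ± 0.13 with all libraries (-0.25 to 0.30; edgeR adjusted p = 0.915) and by 0.08 ± 0.04 without the pair, and neither passed. VIM-AS1, which overlaps VIM, was at 1.80 ± 0.588, 1.27 ± 0.407 and 1.03 ± 0.121 CPM in ShNC, H2O2 and YH (SD, n = 4).

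**Figure D3:**
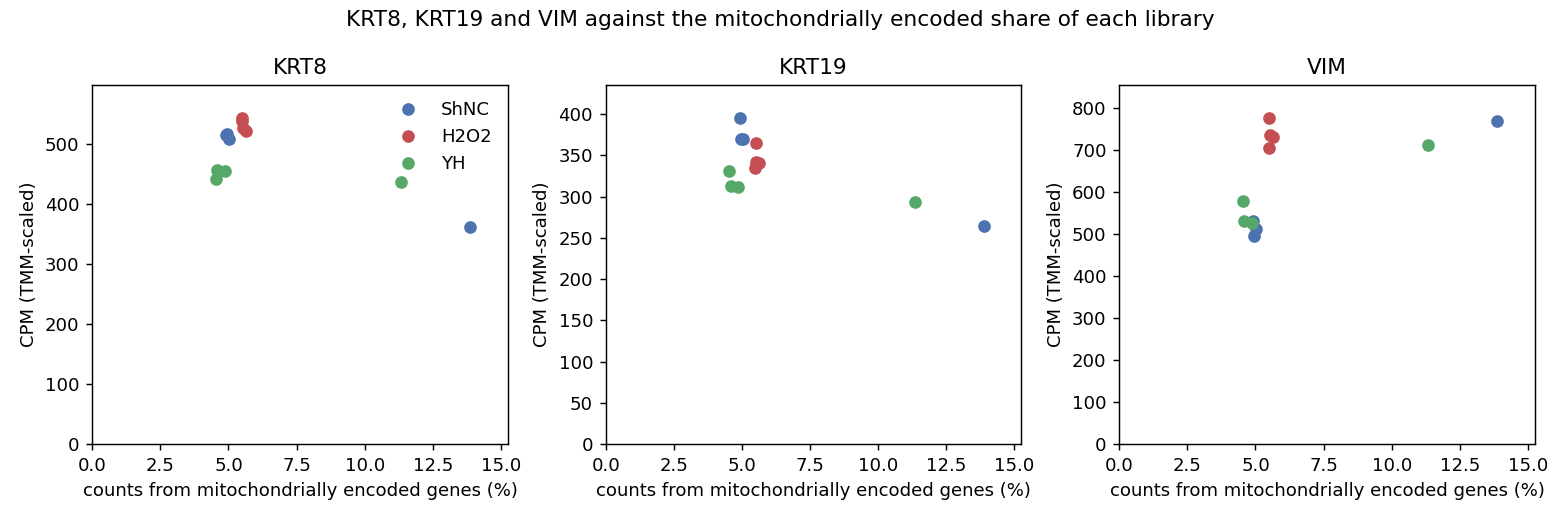
Levels of KRT8, KRT19 and VIM (y axis, TMM-scaled CPM from 0) against the percent of counts from mitochondrially encoded genes (x axis) in each of the 12 libraries, coloured by group. ShNC replicate 4, at 13.9%, has the lowest KRT8 (361 CPM) and KRT19 (264 CPM), and both libraries above 10% have VIM at 712 CPM or more. The part of the mitochondrial share in these levels was not tested.

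The order of the 7 genes was compared per kilobase of the principal transcript. In ShNC it ran VIM (309 ± 69.0 CPM per kb), KRT8 (252 ± 40.3), KRT19 (252 ± 42.0), KRT18 (89.7 ± 5.29), KRT80 (39.6 ± 1.52), KRT7 (2.02 ± 0.463) and KRT81 (0.362 ± 0.116), with SD over 4 libraries. VIM and KRT8, and KRT8 and KRT19, overlapped over libraries and could not be ordered. In H2O2 the order was the same and no neighbours overlapped: 395 ± 16.1 for VIM, 282 ± 5.43 for KRT8, 248 ± 9.60 for KRT19, 134 ± 4.56 for KRT18, 53.4 ± 2.27 for KRT80, 24.6 ± 2.01 for KRT7 and 1.52 ± 0.207 CPM per kb for KRT81. In YH, KRT8 (237 ± 5.39 CPM per kb) and KRT19 (225 ± 11.0) overlapped, KRT7 was back at 2.62 ± 0.319, and the order was otherwise kept. Per kilobase of all annotated exons, 2.34 kb for KRT19 and 5.16 kb for VIM, KRT19 had a higher mean than VIM in each group. The ranges of both overlapped in all 3 groups. Within libraries KRT19 was above VIM except in ShNC replicate 4 and YH replicate 3. By this length KRT8 stood at 68.9, 77.3 and 64.9 CPM per kb in ShNC, H2O2 and YH, below KRT19 at 150, 148 and 134. The order of KRT8 and KRT19 thus depends on the length used.

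The makeup of the keratins shifted with these levels. The ratio of KRT18 to KRT8 in CPM per kb was 0.340, 0.332, 0.344 and 0.429 in ShNC replicates 1 to 4, 0.479, 0.449, 0.478 and 0.491 in H2O2, and 0.519, 0.549, 0.581 and 0.521 in YH. The 3 groups did not overlap, so the ratio was lowest in ShNC and highest in YH. Its size depends on the length used: per kilobase of all annotated exons it was 0.589 to 0.762 in ShNC, 0.796 to 0.872 in H2O2 and 0.921 to 1.03 in YH, again without overlap. KRT7 made up 0.587% to 0.787% of the summed CPM per kb of the 4 type II keratins in ShNC, 6.18% to 7.20% in H2O2 and 0.755% to 0.993% in YH. Even in H2O2 it was thus a minor part of the type II pool, most of which was KRT8. The 6 keratins held 95.5% to 96.9% of the summed CPM of all 49 keratin genes found, and their sum was 910 to 1221 CPM in ShNC, 1308 to 1389 CPM in H2O2 and 1149 to 1191 CPM in YH. In bulk RNA a change in the share of cells that carry a transcript and a change in its amount per cell cannot be told apart.

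**Figure D4:**
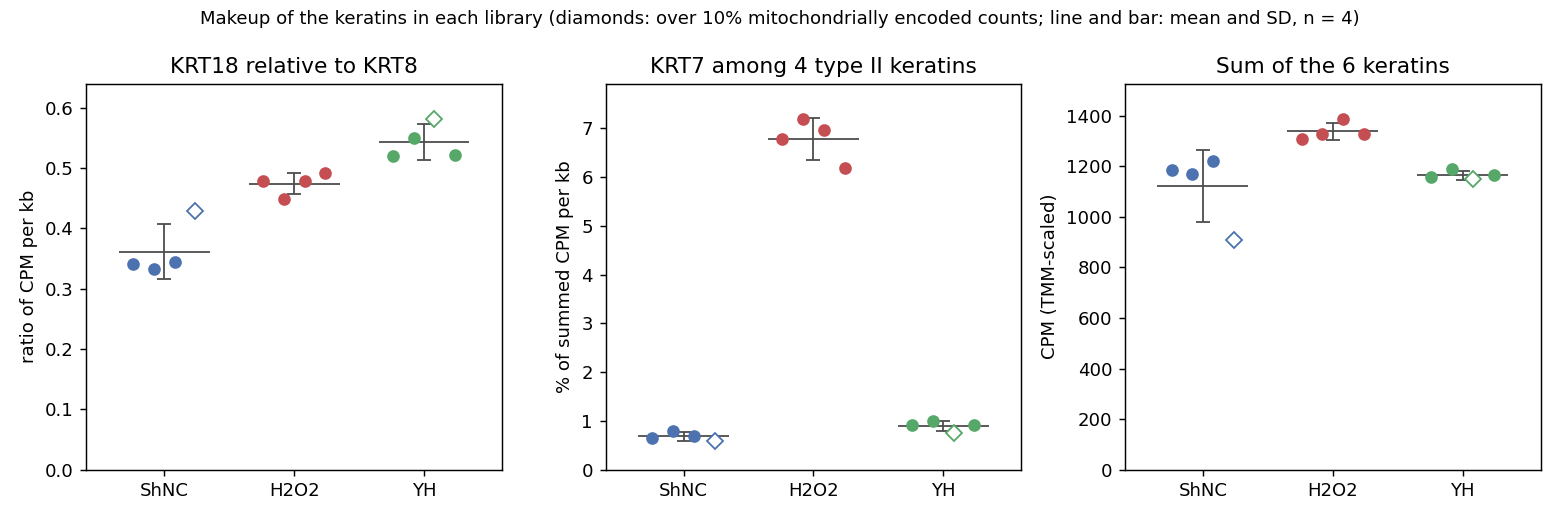
Ratio of KRT18 to KRT8 (CPM per kb), percent of KRT7 in the summed CPM per kb of KRT7, KRT8, KRT80 and KRT81, and summed CPM of the 6 keratins, by library. Points are libraries, diamonds those of high mitochondrial share, and lines and bars the mean and SD of 4. The KRT18 to KRT8 ratio steps from 0.332 to 0.429 in ShNC to 0.449 to 0.491 in H2O2 and 0.519 to 0.581 in YH, and the share of KRT7 stands out in H2O2 alone.

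The rest of the keratin family was low in these cells. Of 43 other keratin genes found, 35 failed the filter on low counts and 4 had no count in any library. KRT10, a type I keratin of cornifying epidermis, was the highest, at 31.8 ± 4.25, 35.7 ± 3.31 and 41.1 ± 2.26 CPM in ShNC, H2O2 and YH (SD, n = 4). Among the 8 tested, KRT86, KRT78 and KRT79 were higher in H2O2 than in ShNC by 1.63 ± 0.36, 0.78 ± 0.22 and 0.62 ± 0.22 in log2, and the type I hair keratin KRT34 was lower, at -0.73 ± 0.18. KRT3, KRT4, KRT10 and KRT15 did not pass. KRT34 was higher in YH than in H2O2 by 0.74 ± 0.18, and the other 7 did not pass. Against ShNC, KRT86 (1.70 ± 0.36), KRT3 (1.56 ± 0.52), KRT78 (0.95 ± 0.22) and KRT10 (0.37 ± 0.10) were higher in YH. All of these except KRT10 had group means under 4 CPM.

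Counted over both classes with the 6 keratins included, 6 of the 9 tested type II keratins were higher in H2O2 than in ShNC and none was lower, with a median log2 difference of 0.78, against 1 higher and 1 lower of the 5 tested type I keratins, with a median of -0.02. From H2O2 to YH 3 type II keratins were lower, and 1 type I keratin was higher. Of all genes tested 23.9% were called higher and 22.6% lower in H2O2 minus ShNC, and 22% and 21% in YH minus H2O2. Of the 6 type II keratins higher in H2O2, KRT78, KRT79, KRT81 and KRT86 had group means under 3 CPM. Reads could be divided between KRT81 and KRT86, so these may not count separately. The type I genes were fewer, and no test of a difference between the classes was made.

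Genes that anchor or arrange the filaments changed in both directions. Of 18 tested linkers and keratin organisers 7 were higher and 5 lower in H2O2 than in ShNC (median 0.22). Of all genes tested 23.9% were called higher and 22.6% lower. The plakins envoplakin (EVPL) and periplakin (PPL), which tie keratins to the cell periphery, were higher by 2.50 ± 0.16 and 1.24 ± 0.13 in log2, whereas the desmosomal cadherins DSC2 and DSG2 were lower, at -2.44 ± 0.09 and -1.04 ± 0.08. EVPL rose from 35.5 ± 9.63 to 201 ± 3.56 CPM and stood at 47.5 ± 3.77 CPM in YH, and DSC2 went from 26.8 ± 1.62 to 4.93 ± 0.482 and 27.0 ± 1.09 CPM (SD, n = 4). From H2O2 to YH 4 linkers were higher and 7 lower, with EVPL at -2.08 ± 0.16, PPL at -0.58 ± 0.13, DSG2 at 1.06 ± 0.08 and DSC2 at 2.46 ± 0.09, in a comparison that shares the H2O2 libraries. Among all genes 22% were called higher and 21% lower there. Desmoplakin (DSP), which joins keratin filaments to desmosomes, was at 105 ± 4.51, 182 ± 9.59 and 181 ± 12.1 CPM, higher in H2O2 by 0.79 ± 0.06 and at -0.01 ± 0.06 in YH minus H2O2, which did not pass.

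**Figure D5:**
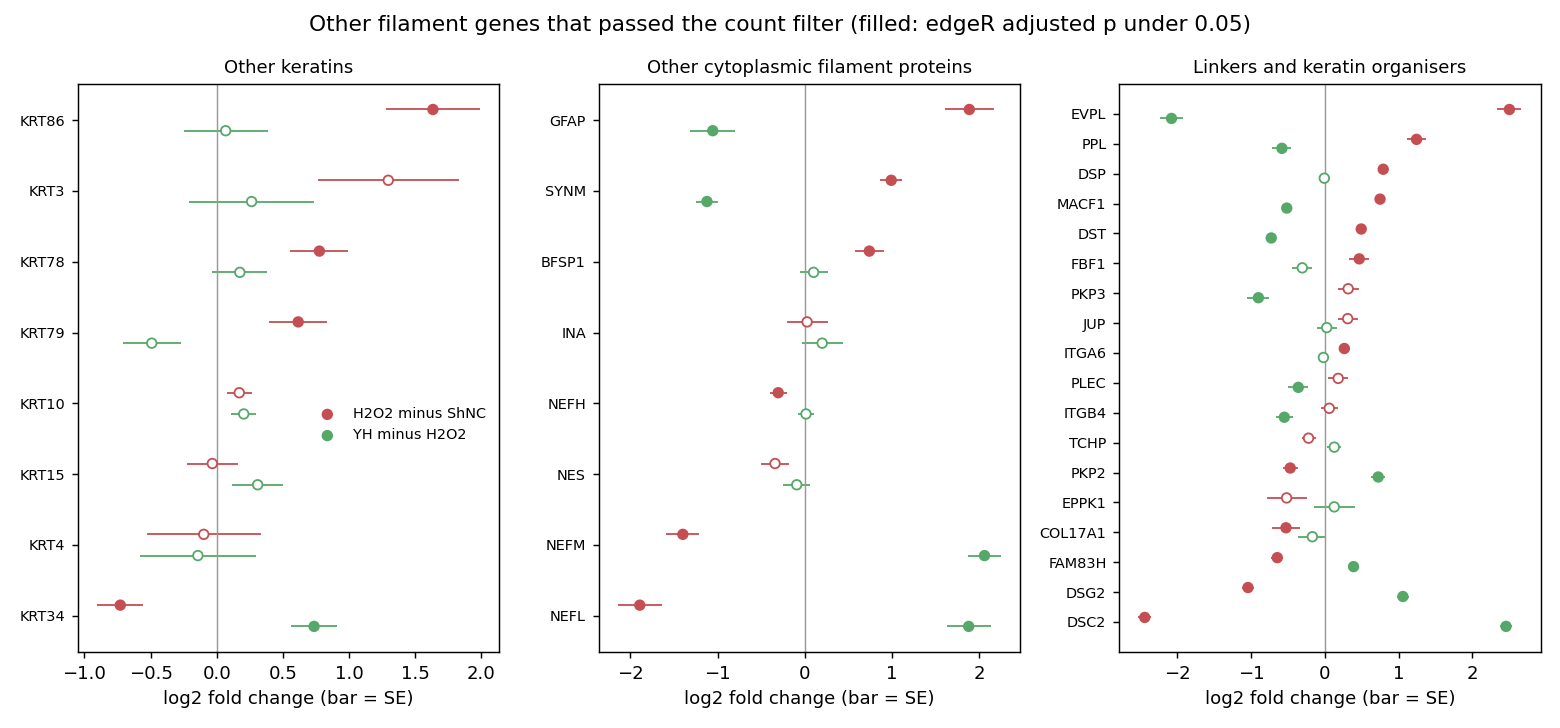
Log2 fold change with SE (x axis) for the tested keratins outside the 7 genes, other cytoplasmic filament proteins, and linkers and keratin organisers, in H2O2 minus ShNC (red) and YH minus H2O2 (green), which share the H2O2 libraries. Filled points passed an edgeR adjusted p of 0.05. EVPL and PPL lie to the right and DSC2 and DSG2 to the left in H2O2 minus ShNC, with the reverse in YH minus H2O2.

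Lists of genes that regulate or accompany keratins and vimentin were counted in the same way. Beside them, 23.9% of all genes tested were called higher and 22.6% lower in H2O2 minus ShNC. Of 13 tested transcription factors of epithelial keratin genes 2 were higher and 3 lower in H2O2 than in ShNC (median -0.14), with KLF4 at 1.50 ± 0.14, ELF3 at -1.34 ± 0.11 and TFAP2A at -1.83 ± 0.18. Of 7 tested transcription factors of mesenchymal change 5 were higher and none lower (median 1.18), among them TCF4 at 3.01 ± 0.10 and SNAI2 at 1.51 ± 0.14. The list of epithelial surface genes, which also holds the splicing regulators ESRP1 and ESRP2, went the other way. Of 12 tested 1 was higher (CLDN4, 0.98 ± 0.15) and 8 were lower (median -0.95), including ESRP1 at -2.93 ± 0.14 and the mucin MUC1 at -1.85 ± 0.26. Of 10 tested mesenchymal filament and matrix genes 4 were higher, among them fibronectin (FN1, 1.08 ± 0.12) and COL1A1 (1.41 ± 0.12), and 2 were lower (median 0.06), LOX (-1.49 ± 0.07) and COL5A1 (-2.57 ± 0.17).

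From H2O2 to YH the counts of higher and lower genes were 6 and 1 for the epithelial keratin factors (median 0.41) and 0 and 3 for the mesenchymal factors (median -0.20). They were 10 and 1 for the list of epithelial surface genes (median 0.98) and 2 and 4 for the mesenchymal genes (median -0.31). Among all genes 22% were called higher and 21% lower. TCF4 was lower in YH, at -3.19 ± 0.10, while SNAI2 (-0.20 ± 0.13) and KLF4 (-0.15 ± 0.14) did not pass. SNAI2 and KLF4, like KRT18 and KRT80, were higher in YH than in ShNC, by 1.31 ± 0.14 and 1.35 ± 0.14.

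For each of the 7 genes the 3 genes of most similar pattern were found among 11521 tested genes averaging 5 CPM or more, by Pearson r of log2(CPM + 0.5) over the 12 libraries. The points share 3 groups, so for KRT7, KRT18, KRT80 and KRT81 r mostly follows the group levels. For KRT8, KRT19 and VIM it also follows ShNC replicate 4, which lay far from the rest of its group. In each case r is a description. KRT7 was nearest to THBS2 (0.998), NPC2 (0.996) and FBN1 (0.995), each high in H2O2. KRT81 was nearest to LPAR3 (0.982), KCNK6 (0.981) and TRPC4 (0.972), with YH between the other groups. KRT18 was nearest to CLIP2 (0.988), GARRE1 (0.987) and MLPH (0.986), and KRT80 to ASAP2 (0.991), DSP (0.981) and CYTH3 (0.980), all higher in both groups given peroxide.

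The nearest patterns were DOK4 (0.983), PLEC (0.979) and EPS8L1 (0.976) for KRT8, and H3P6 (0.955) and TNNT1 (0.954) for KRT19. For VIM they were TJP1 (0.985), CCNH (0.972) and BISPR (0.969). Without the pair of high mitochondrial share these genes ranked 79, 248 and 232 for KRT8, 116 and 76 for KRT19, and 9, 23 and 305 for VIM. Of all 21 nearest genes 3 stayed among the nearest 3 when the pair of high mitochondrial share was left out: THBS2 for KRT7, ASAP2 for KRT80 and LPAR3 for KRT81.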

How the data were processed

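RNA of 12 HK-2 libraries was sequenced, 4 in each group. The authors deposited a table of raw counts per gene for each library; HISAT2, featureCounts, Subread and DESeq2 and the GRCh38 genome are named per the submitters' processing notes, but their versions, the annotation and the strand setting were not given in the sources used here. The labels give the cell line, although kidney tissue is mentioned for the extraction.

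Counts were tested with edgeR 4.0.16 in R 4.3.3: filterByExpr, TMM scaling, a robust quasi-likelihood fit of 3 group means to all 12 libraries (common dispersion 0.0163, 9 residual degrees of freedom), and Benjamini-Hochberg adjustment over 19268 genes, with calls at an adjusted p under 0.05. Adjusted p-values are from this fit unless an alternative is named beside them. CPM are TMM-scaled, floors of 3 counts cover counting error only, and intervals of 95% come from the standard error. The code was tested on simulated data. Positions, transcript lengths and coding identities are from GENCODE 29.

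The 7 genes and all lists were chosen with earlier results of these data known. Named beside them were YAP1, every other tested keratin, up to 2 called genes per list and direction with the largest change in H2O2 minus ShNC at a mean of at least 5 CPM, the 3 nearest patterns of each gene, and genes sharing sequence; a nearest gene of KRT19 is not reported here. Chi-square per degree of freedom between replicates was 2.85 or more, so replicates differed by more than counting error. This cannot tell libraries of the same culture or RNA from those of separate cultures. It was 95.8 to 159 where ShNC replicate 4 or YH replicate 3 was included, and 2.85 to 6.39 between the other replicates. The deviations of ShNC replicate 4 and YH replicate 3 from their group means correlated at 0.39. Alternatives were DESeq2 1.42.0, library sizes without TMM factors, no filter, only the groups compared, a replicate block, each library left out, the pair of high mitochondrial share left out, mitochondrially encoded genes left out, and removal of the median shift of 25 neighbouring genes on either side.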

Additional observations from a re-analysis of the deposited data

Results flagged for a closer look

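Of the 21 sets of 4 libraries formed by the 7 genes and 3 groups, 2 held a library far from the others by Dixon's criterion, which chance meets in about 1 of 20 sets. KRT8 was at 361 CPM in ShNC replicate 4, against 507 to 516 CPM in the other ShNC libraries. VIM was at 770 CPM in the same library, against 496 to 532 CPM in the others. This library had the highest share of mitochondrially encoded counts, 13.9%, and the part of that share in the 2 values was not tested.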

How the results depend on the processing

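Over 3 comparisons the 7 genes give 21 differences, each recomputed under 20 alternatives. Of these 12 kept their call throughout, 9 changed it under at least 1 alternative, and 0 reversed while called. KRT7, KRT18, KRT80 and KRT81 kept their calls in H2O2 minus ShNC throughout. The number of the 7 genes called was 4 to 6 in H2O2 minus ShNC. Among all genes 8971 of 19268 were called there with all libraries, 11603 of 19526 without the pair and 8067 of 19589 without H2O2 replicate 2. In YH minus H2O2 the number of the 7 genes called was 3, and 5 with only the groups compared, 6 without the pair of high mitochondrial share and 2 to 5 with single libraries left out (5 without ShNC replicate 4). It was 4 with DESeq2 and 4 with library sizes alone. The calls among all genes also moved. They were 8288 of 19268 with all libraries, 8895 of 18462 with only the groups compared and 11194 of 19526 without the pair. Without ShNC replicate 4 they were 9684 of 19599, and without H2O2 replicate 1 they were 7196 of 19688. With DESeq2 they were 8654 of 19268, and with library sizes alone 7981 of 19268. In YH minus ShNC the number of the 7 genes called was 3, and 6 without the pair and 3 to 5 with single libraries left out (5 without ShNC replicate 4). It was 4 with DESeq2, which called 6783 of 19268 genes, and 4 with no filter on low counts, which called 5626 of 38600. Among all genes 6265 of 19268 were called there with all libraries, 9146 of 19526 without the pair and 7298 of 19599 without ShNC replicate 4. The cause of these changes was not tested. VIM in H2O2 minus ShNC also lost its call with no filter on low counts, and its adjusted p ranged from 2.73e-13 to 0.137 over the alternatives; VIM in YH minus H2O2 passed under 8 of them (1.33e-11 to 0.174). KRT8 in YH minus H2O2 was -0.21 and not called with the shift of neighbouring genes removed. KRT7 in YH minus ShNC passed under 5 alternatives, DESeq2 among them (0.0211 to 0.171).

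Replicate numbers do not pair the libraries by any label. Deviations of same-numbered libraries correlated at -0.22 to 0.10, with 1 of 12 pairs above 0.1. With a replicate block 8536, 7798 and 5731 of 19268 genes were called in H2O2 minus ShNC, YH minus H2O2 and YH minus ShNC, and 5, 3 and 3 of the 7 genes. KRT81 rests on as few as 14 counts in a library, the main limit of depth among the 7.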

Other observations

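Of 9 tested genes of cytoplasmic filaments other than keratins, VIM included, 4 were higher and 3 lower in H2O2 than in ShNC. Among all genes tested 23.9% were called higher and 22.6% lower. The filament genes named here besides SYNM and NEFH were chosen after their values were seen. The neurofilament subunits NEFL and NEFM were low, and lower in H2O2 than in ShNC. NEFL was at 1.58 ± 0.280, 0.424 ± 0.0873 and 1.56 ± 0.407 CPM in ShNC, H2O2 and YH (SD, n = 4), a log2 difference of -1.89 ± 0.25 in H2O2 minus ShNC (SE; edgeR adjusted p = 1.56e-05) and of 1.88 ± 0.25 in YH minus H2O2. NEFM was at 2.06 ± 0.204, 0.771 ± 0.197 and 3.27 ± 0.339 CPM, with differences of -1.40 ± 0.19 and 2.06 ± 0.19. SYNM, which encodes synemin, a filament protein that assembles with vimentin, was at 18.9 ± 2.45, 37.5 ± 0.890 and 17.2 ± 3.54 CPM, with differences of 0.99 ± 0.13 and -1.12 ± 0.13, both called. NEFH, the heavy neurofilament subunit, was lower in H2O2 than in ShNC, at -0.30 ± 0.10. GFAP, a type III filament protein of astrocytes, and BFSP1, known from the lens, were higher in H2O2 than in ShNC by 1.89 ± 0.28 and 0.74 ± 0.17, at group means of 0.286 and 1.07 CPM for GFAP and 2.81 and 4.70 CPM for BFSP1.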
